A study of Mus musculus with 21 samples.

Results

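Transcripts that differed from wild type in the same direction in 3 mouse mutants of Pmp22 were sought in the sciatic nerve at postnatal day 4 (P4). The comparison used 9 mutant arrays and 3 wild-type arrays of the 21 arrays in the series. The mutant side held every array labelled at P4 as knockout (KO, both Pmp22 alleles null), transgenic (TG, extra Pmp22 from a transgene) or Trembler (TR, a mutation within Pmp22), 3 arrays of each genotype. The wild-type (WT) side held the 3 P4 arrays of WT mice on a mixed background. All nerves were untreated as far as the labels say, and each array held RNA pooled from 4 to 7 mice. The labels give neither the promoter nor the copy number of the transgene, say nothing of whether Trembler mice carried 1 or both mutant alleles, and name a background for WT mice alone, so that strain and genotype cannot be told apart. Each genotype was averaged first, and the mean of the 3 genotype means was set against WT, so that every genotype had the same weight.

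PMP22 is a small membrane protein of the compact myelin that Schwann cells wrap around large axons. In humans, extra copies, loss of a copy and point mutations of the gene each cause an inherited neuropathy, and the 3 mutants cover these kinds of lesion in mice. In the first days after birth Schwann cells of the sciatic nerve leave the cell cycle and build myelin at a high rate. Myelin is rich in cholesterol, most of which Schwann cells make themselves from acetyl-CoA by way of mevalonate, farnesyl diphosphate, squalene and lanosterol. The genes of this route are driven by sterol regulatory element-binding proteins (SREBPs), which act in many promoters beside the CCAAT-binding factor NF-Y, and genes of fatty acid synthesis share these regulators.

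Values are the authors' model-based expression index, a linear intensity per probe set, and a log2 change is the mean of the mutants minus WT after values below a floor of 54.7 were raised to it. The 12 P4 arrays had medians between 181 and 198, and between 79.2% and 80.8% of probe sets lay above the floor. The Schwann cell markers Mbp and Sox10 read at least 3926 and 641 on every mutant array, and at least 5531 and 826 on every WT array. The markers Cd3g and Cd8a (T and B lymphocytes), Mcpt4 (mast cells) and Pdgfrb (pericytes) were at or below the floor on all 12 arrays. Other markers of the same cell types read above it on all 12 arrays. These were Cd3e and Cd79a of lymphocytes, Cpa3, Kit and Cma1 of mast cells, and Acta2 and Tagln of smooth muscle and pericytes. Myh11 of smooth muscle read above it on 8 mutant arrays and 1 WT array. Markers of skeletal muscle were present and varied widely, with Acta1 between 526 and 3851 on the mutant arrays and between 1054 and 4592 on the WT arrays. TG_3, TR_2 and WT_2 stood apart from the other P4 arrays on the first principal component, which held 31.7% of the variance and did not separate the genotypes, with KO_2 at its other end. The arrays were scanned on 8 days, and TR_2 and WT_2 were the only mutant and WT arrays scanned on 1 day.

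The Pmp22 transcript itself was read by a pair of probe sets. On 102395_at KO nerves read 4839, 5424 and 5129, TG nerves 6676, 6606 and 6803, TR nerves 6779, 7383 and 5875, and WT nerves 6840, 7682 and 7093. The 3 KO arrays were lowest, the 3 TG arrays lay just below the lowest WT array, and the TR arrays overlapped WT. The dim 161442_at read 38.0, 40.2 and 38.6 in KO nerves, 61.4, 80.9 and 122 in TG nerves and 61.3, 60.5 and 49.5 in TR nerves, against 97.4, 106 and 104 in WT nerves. Neither probe set passed the test for the mean of the mutants (log2 change -0.24 and -0.66, limma adjusted p = 0.499 and 0.113). KO nerves kept a reading, and where these probe sets lie relative to the null allele is not given in the sources used here, so Pmp22 did not serve as a check of the labels.

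Of 10994 probe sets tested, 62 (0.564%) had a limma adjusted p below 0.05 in the mean of the mutants against WT, 12 higher (0.109%) and 50 lower (0.455%). For 42 of them (0.382%) the change had the same sign in KO, TG and TR, and all 9 mutant arrays lay beyond all 3 WT arrays. These are called common below. Of the 42, 36 were lower in the mutants (0.327%) and 6 were higher (0.0546%), and they stood for 28 and 6 named genes. Whether called or not, the 9 mutant arrays lay beyond the 3 WT arrays for 1.4% of probe sets: all 9 lay below all 3 WT arrays for 102 probe sets (0.928%) and above them for 52 (0.473%). The common falls ranged from -1.87 to -0.59 on the log2 scale and the common rises from 0.51 to 1.03, beside a median of 0.02 over all probe sets. The lower group was led by enzymes of cholesterol synthesis, with fatty acid enzymes, a proteoglycan, a peptidase and several transporters beside them.

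**Figure D1:**
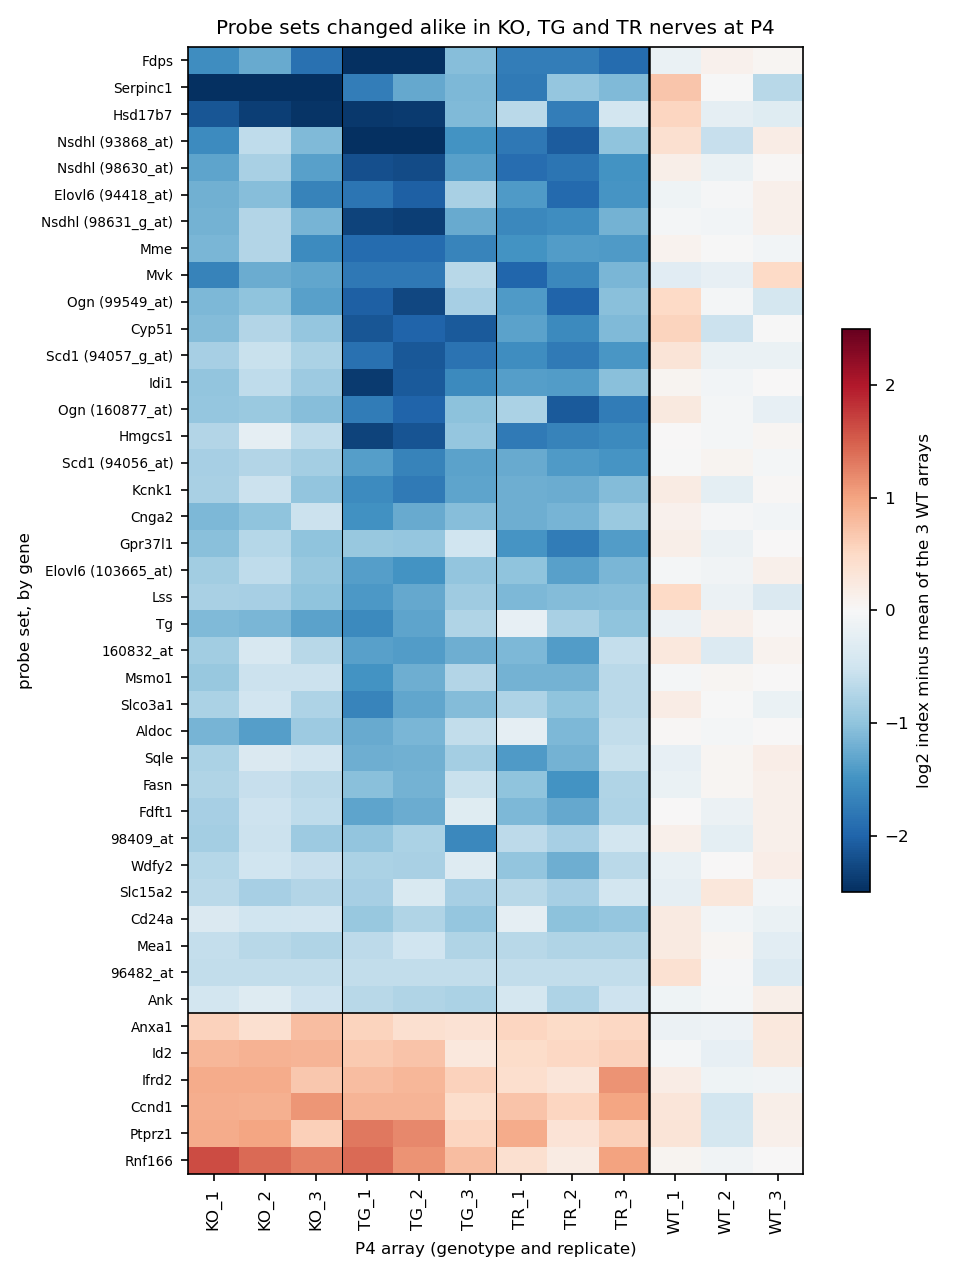
Log2 index of the 42 common probe sets (rows, by gene) on the 9 mutant arrays and the 3 WT arrays at P4 (columns), as the difference from the mean of the 3 WT arrays. Colours end at 2.5 in either direction. Every mutant column is blue in the 36 upper rows and red in the 6 lower rows, with KO paler than TG and TR in many rows and TG_3 paler than TG_1 and TG_2 in most sterol rows.

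Each genotype was also compared with WT on its own, with 3 mutant arrays and the same 3 WT arrays as the others. The 42 were chosen by the mean of the mutants, so that no genotype alone could call more of them. Against WT, 39 probe sets were called in KO (0.355%), 61 in TG (0.555%, with 0.0819% higher) and 48 in TR (0.437%, with 0.091% higher). Of the 42 common ones, 12 were called in KO, 30 in TG and 24 in TR. Of these, 6 were called in all 3 genotypes, 15 in 2, 18 in 1 and 3 in none alone. The 6 belonged to Scd1 (94056_at), Elovl6 (94418_at), Mme, Mvk, Mea1 and the unnamed probe set 96482_at.

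Genes of cholesterol synthesis fell along most of the route in the mean of the mutants. Of 21 genes on the list, 17 were measured, and by the brightest probe set of each gene 10 fell and 0 rose, against 0.455% and 0.109% of all probe sets. When any probe set of a gene was counted, 12 fell. The spread was estimated over all 21 arrays, and a fit on the 12 P4 arrays alone called 2 of the 17 lower. The brightest probe sets had a median log2 change of -0.95, and each of the 17 had a negative value, where 42.2% of all probe sets did. The medians by genotype were -0.64 in KO, -1.15 in TG and -1.06 in TR, each against the same WT arrays. Taken alone, KO had 1 of the 17 called lower (Hsd17b7), TG 9 and TR 10, where 0.227%, 0.473% and 0.346% of all probe sets were called lower in KO, TG and TR. The summed index of the 17 probe sets ran from 11516 to 14716 in KO nerves, from 6316 to 11285 in TG nerves and from 8778 to 10331 in TR nerves, against 20358 to 21666 in WT nerves, so that no mutant array reached the lowest WT array. In whole nerve, fewer cells of a type and less RNA per cell cannot be told apart.

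The first steps lead from acetyl-CoA units to isoprenoids. Hmgcs1, the enzyme that makes HMG-CoA, read 2159, 3078 and 2319 in KO nerves, 723, 801 and 1846 in TG nerves and 1049, 1124 and 1190 in TR nerves, against 3604, 3466 and 3690 in WT nerves. Idi1, the isomerase of isopentenyl diphosphate, read 1886, 2399 and 1996 in KO nerves, 709, 866 and 1238 in TG nerves and 1437, 1425 and 1801 in TR nerves, against 3891, 3553 and 3741 in WT nerves. For both genes the 3 WT arrays lay close together, and every mutant array lay below them, the KO arrays nearest to WT. The log2 change was -1.34 ± 0.21 for Hmgcs1 (SE, limma adjusted p = 0.00416) and -1.38 ± 0.15 for Idi1 (adjusted p = 0.000184), which correspond to levels 2.53-fold and 2.60-fold higher in WT. Fdps, which makes farnesyl diphosphate, had the lowest change of the common genes on 99098_at, with 478, 588 and 383 in KO nerves, 190, 197 and 668 in TG nerves and 423, 422 and 371 in TR nerves, against 1246, 1517 and 1455 in WT nerves. TG_3 stood above TG_1 and TG_2 there and at Hmgcs1. The Fdps change was -1.87 ± 0.31 (adjusted p = 0.0064). Its brightest probe set, 160424_f_at, had a like value without passing the test (-1.56, adjusted p = 0.125), and a further one, the dim 162281_at, had the opposite sign (0.18, adjusted p = 0.929).

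Mvk, the kinase of mevalonate, was common on 95632_f_at, with 88.2 to 218 on the mutant arrays and 287 to 493 on the WT arrays (-1.47 ± 0.24, limma adjusted p = 0.00619). The other probe set of Mvk, 95633_r_at, read 182 to 292 on the mutant arrays and 226 to 320 on the WT arrays, and its change of -0.27 was not called (adjusted p = 0.885). The pair therefore disagreed on whether Mvk changed, and both carry a suffix for probe sets that can take signal from related transcripts. Mvd, the decarboxylase of the next step, stayed short of the threshold at -0.66 (adjusted p = 0.125).

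Squalene is then made and closed to lanosterol. Fdft1, the squalene synthase, read 466 to 948 on the mutant arrays and 1059 to 1286 on the WT arrays (-0.89, limma adjusted p = 0.0275). Sqle, which oxidises squalene, read 610 to 1264 on the mutant arrays and 1399 to 1812 on the WT arrays (-0.89, adjusted p = 0.0103). Lss, the cyclase that forms lanosterol, read 208 to 324 on the mutant arrays and 443 to 797 on the WT arrays (-1.06, adjusted p = 0.00352). All 3 genes thus fell without overlap of mutants and WT. The branch enzyme Ggps1, which draws isoprenoids away to geranylgeranyl diphosphate, showed no call on either probe set (-0.19 and 0.03, adjusted p = 0.937 and 1).

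The later steps turn lanosterol into cholesterol. Cyp51, the lanosterol demethylase, read 634, 810 and 685 in KO nerves, 305, 334 and 315 in TG nerves and 535, 447 and 627 in TR nerves, against 1967, 921 and 1344 in WT nerves (-1.45 ± 0.23, limma adjusted p = 0.00506). The TG arrays were the lowest 3 and the WT arrays spread widely. Nsdhl, an enzyme of the removal of the C4 methyl groups, was common on all 3 of its probe sets, with changes of -1.65, -1.61 and -1.48. On 98630_at it read 238, 338 and 231 in KO nerves, 129, 126 and 232 in TG nerves and 158, 168 and 210 in TR nerves, against 652, 527 and 601 in WT nerves (adjusted p = 0.000826). Msmo1, the methylsterol oxidase that acts before Nsdhl, read 935 to 1837 on the mutant arrays and 2547 to 2750 on the WT arrays (-0.95, adjusted p = 0.00416). Hsd17b7, the ketosteroid reductase that completes these steps, read 79.8, 68.9 and 64.7 in KO nerves, 66.6, 67.2 and 163 in TG nerves and 221, 107 and 257 in TR nerves, against 508, 302 and 285 in WT nerves. Unlike most sterol genes, Hsd17b7 had its lowest change in KO, at -2.31 beside -1.97 in TG and -0.95 in TR (-1.74 ± 0.30 for the mean of the mutants, adjusted p = 0.01).

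Sc5d, a sterol desaturase, passed the test on both probe sets (-1.25 and -1.21, limma adjusted p = 0.0179 and 0.0203) but was not common. On 102769_f_at it read 87.3, 143 and 101 in KO nerves, 38.9, 56.0 and 60.2 in TG nerves and 53.2, 18.0 and 66.1 in TR nerves, against 196, 98.0 and 251 in WT nerves, so that KO overlapped WT. Ebp, a sterol isomerase, had a value of -0.84 without a call (adjusted p = 0.122). Tm7sf2 and Dhcr7, reductases of late steps, had values of -0.17 and -0.15 by their brightest probe sets, and Dhcr7 was at or below the floor on 6 of the 12 P4 arrays.

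**Figure D2:**
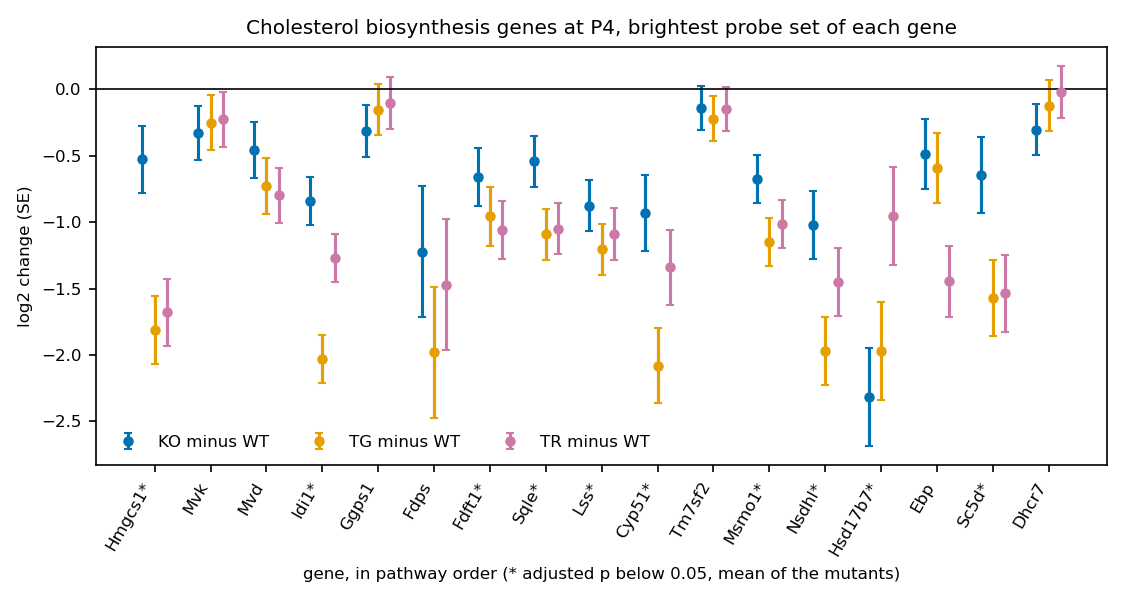
Log2 change from WT at P4 (points, with SE) of the 17 measured cholesterol synthesis genes by their brightest probe set, in pathway order from left to right, for KO, TG and TR. An asterisk marks the 10 genes called in the mean of the mutants. Nearly all points lie below 0, the KO points are nearest to 0 for most genes, and Hsd17b7 has its lowest point in KO.

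The SREBP pathway was also viewed from the sequence side, since its target genes share promoter motifs. RefSeq promoter windows (GRCm38.p6, 250 bases before to 50 after each start, 27025 genes) were searched on both strands for the box CCAAT and for TCACNCCA, a core of the sterol regulatory element. Of the 17 measured cholesterol genes 14 had a window in the table. All 14 held a CCAAT box, as did 41.1% of all genes, and 10 (71.4%) held 2 or more, as did 13.3% of all genes. The sterol core occurred in 2 of the 14 (14.3%), Hmgcs1 and Msmo1, and in 4.97% of all genes. Among the common lower genes outside the cholesterol list, 13 of 17 had a window, and 4 of these (30.8%) held a CCAAT box. The motifs may overlap by the letters CCA, and each was counted on its own. A match is a description of the letters and does not show binding. The 200 bases before the start of 5 common genes of the route are printed 5′ to 3′ on the gene's own strand, as examples of 1 to 3 boxes with and without the sterol core. Capitals mark CCAAT or its reverse complement ATTGG, and the sterol core.
Hmgcs1, chr13:119690151-119690350, plus strand: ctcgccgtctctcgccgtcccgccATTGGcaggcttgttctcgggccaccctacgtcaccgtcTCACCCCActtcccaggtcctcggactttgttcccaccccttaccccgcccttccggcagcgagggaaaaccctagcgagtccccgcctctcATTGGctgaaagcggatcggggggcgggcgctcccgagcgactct
Idi1, chr13:8885406-8885605, plus strand: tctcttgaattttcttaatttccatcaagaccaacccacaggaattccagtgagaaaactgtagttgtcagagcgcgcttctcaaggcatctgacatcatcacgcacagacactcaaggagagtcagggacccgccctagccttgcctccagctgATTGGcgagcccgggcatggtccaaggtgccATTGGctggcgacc
Cyp51, chr5:4104698-4104897, minus strand: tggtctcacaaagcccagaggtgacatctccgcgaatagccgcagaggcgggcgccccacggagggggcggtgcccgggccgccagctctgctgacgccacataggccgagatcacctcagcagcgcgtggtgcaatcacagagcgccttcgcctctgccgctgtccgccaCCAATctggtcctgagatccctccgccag
Msmo1, chr8:64733579-64733778, minus strand: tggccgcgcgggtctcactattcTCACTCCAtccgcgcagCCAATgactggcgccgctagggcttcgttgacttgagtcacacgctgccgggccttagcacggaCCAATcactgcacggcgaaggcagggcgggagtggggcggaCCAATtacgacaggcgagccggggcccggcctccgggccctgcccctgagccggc
Nsdhl, chrX:72918321-72918520, plus strand: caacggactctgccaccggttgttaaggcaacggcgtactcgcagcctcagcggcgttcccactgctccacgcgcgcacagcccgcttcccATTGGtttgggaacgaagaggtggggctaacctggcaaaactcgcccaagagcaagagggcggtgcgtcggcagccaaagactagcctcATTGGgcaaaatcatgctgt
In these windows Hmgcs1 and Msmo1, which hold both motifs, fell by 1.34 and 0.95 on the log2 scale. Idi1, Cyp51 and Nsdhl, which hold CCAAT boxes without a TCACNCCA match, fell by 1.38, 1.45 and 1.61 (98630_at). CCAAT boxes were also found for Ggps1, Dhcr7 and Tm7sf2, which were not called. The sterol core was also found for Aldoc, which fell, Apoe, which was not called, and Rnf166, which rose.

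Genes that control, import or export sterols gave no call. Of 19 on the list 10 were measured, and 0 were called in the mean of the mutants, beside 0.564% of all probe sets. By limma's unadjusted p below 0.05, 1 was higher and 0 were lower. Their median log2 change was -0.17, with 6 below 0 and 4 above. Srebf1, which encodes an SREBP, read 351 to 472 on the mutant arrays and 392 to 498 on the WT arrays (-0.14, 95% interval -0.45 to 0.16, adjusted p = 0.968). The cholesterol exporter Abca1 had a value of 0.48 on 94354_at (adjusted p = 0.665), the HDL receptor Scarb1 -0.40 (adjusted p = 0.745) and the lysosomal cholesterol transporter Npc1 -0.31 (adjusted p = 0.885). Apoe, the main lipid carrier of nerve, ranged from 1564 to 5719 on the mutant arrays and from 1353 to 4204 on the WT arrays, and the genotypes diverged, at 1.16 in KO, 0.75 in TG and -0.58 in TR, without a call among them (adjusted p = 0.0849).

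Some genes of fatty acid synthesis fell as well. Of 18 genes on the list 10 were measured, 3 fell and 0 rose, against 0.455% and 0.109% of all probe sets, and the median log2 change was -0.55. Scd1, the desaturase that makes oleate, had the smallest adjusted p of all common probe sets. On 94056_at it read 2660, 2856 and 2647 in KO nerves, 1835, 1485 and 1889 in TG nerves and 1972, 1779 and 1705 in TR nerves, against 4711, 4971 and 4555 in WT nerves. All 4 groups were tight, and the KO arrays lay between WT and the other mutants (-1.22 ± 0.11, limma adjusted p = 3.7e-05). Its probe set 94057_g_at gave -1.42, and the third, 94058_r_at, gave -0.47 without a call (adjusted p = 0.885). Elovl6, which elongates palmitate, read 942, 1034 and 680 in KO nerves, 610, 526 and 1230 in TG nerves and 810, 560 and 773 in TR nerves on 94418_at, against 2013, 2129 and 2363 in WT nerves (-1.50, adjusted p = 0.00321). The common change of Elovl6 was also seen on 103665_at (-1.09, adjusted p = 0.00135). Fasn, the fatty acid synthase, which was singled out after its values were seen, read 622 to 1180 on the mutant arrays and 1555 to 1894 on the WT arrays (-0.89, adjusted p = 0.0194). Not called on this list were Fads1 at -0.79 (adjusted p = 0.10), Acly at -0.65 (0.22), Elovl1 at -0.45, Scd2 at -0.28, Me1 and Thrsp at -0.03 each, and Elovl5 at 0.39.

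**Figure D3:**
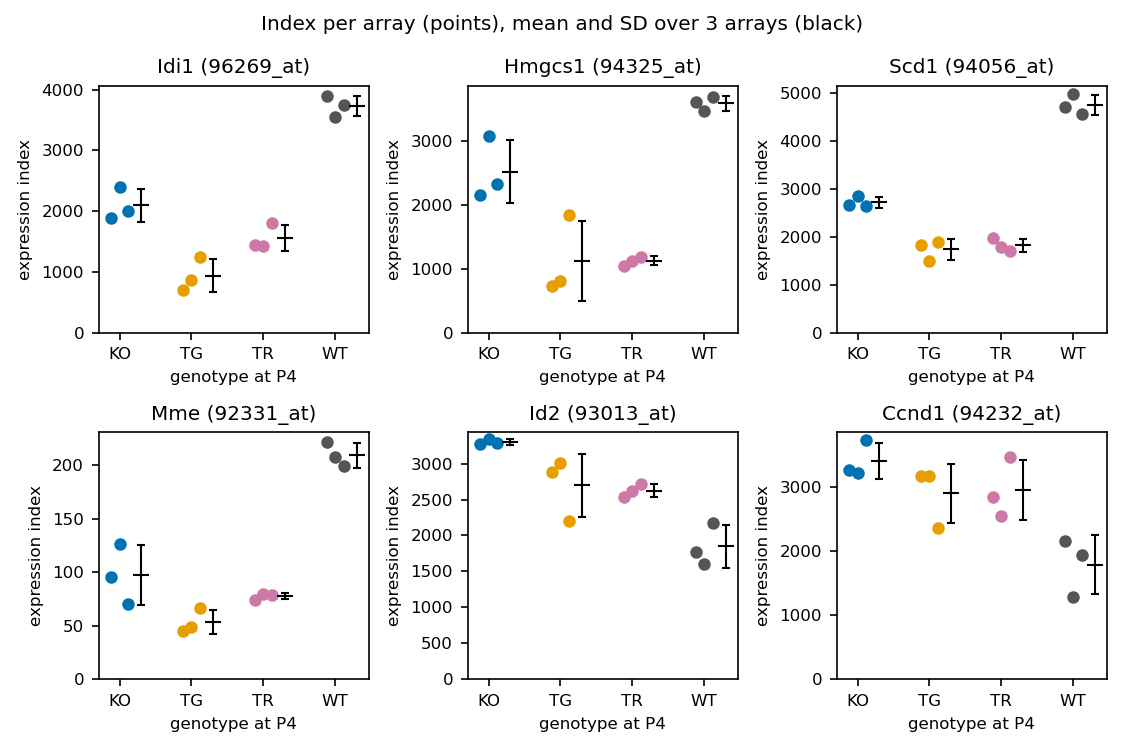
Expression index of 6 common probe sets on each P4 array (points), with the mean and SD over 3 arrays beside them, for KO, TG, TR and WT. Idi1, Hmgcs1, Scd1 and Mme read lower on every mutant array than on any WT array, with TG_3 at 1846 standing high among TG arrays for Hmgcs1. Id2 and Ccnd1 read higher on every mutant array.

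Myelin genes outside lipid synthesis gave no call. The 5 measured myelin proteins of 14 on the list had a median log2 change of -0.34. Mbp, a structural protein of compact myelin, read 3926 to 5089 on the mutant arrays and 5531 to 5950 on the WT arrays, and Mag, an adhesion protein of the inner myelin layer, read 240 to 512 on the mutant arrays and 565 to 646 on the WT arrays. Both were without overlap, as were 0.928% of all probe sets, yet their changes of -0.33 and -0.70 were not called (limma adjusted p = 0.22 and 0.49). The 6 measured genes of myelin glycolipid and sphingolipid synthesis had a median of -0.40 and 0 calls, with 4 lower at an unadjusted p below 0.05, where 3.55% of all probe sets were. Among them, Ugt8a, which makes galactosylceramide, had the lowest value (-0.95, adjusted p = 0.13). The myelin regulator Egr2 read 2061 to 4159 on the mutant arrays and 2838 to 3571 on the WT arrays, and its change was 0.06 (adjusted p = 1).

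The common lower genes outside lipid synthesis were of mixed function. Serpinc1, which encodes antithrombin, read 39.0, 51.1 and 46.9 in KO nerves, 118, 161 and 180 in TG nerves and 116, 200 and 184 in TR nerves, against 639, 392 and 243 in WT nerves (-1.84 ± 0.25, limma adjusted p = 0.00158). All 3 KO arrays lay below the floor, so that the KO change of -2.85 is a bound set by it. Mme, the membrane peptidase neprilysin, read 95.1, 126 and 70.1 in KO nerves, 44.9, 49.1 and 66.1 in TG nerves and 74.2, 79.6 and 78.5 in TR nerves, against 222, 207 and 199 in WT nerves. Even the highest mutant array lay clearly below the WT arrays (-1.47 ± 0.17, adjusted p = 0.000614). Ogn, a small proteoglycan of the matrix, was common on both probe sets, and on 160877_at it read 1743, 1801 and 1646 in KO nerves, 1019, 857 and 1696 in TG nerves and 1981, 799 and 1021 in TR nerves, against 4055, 3325 and 2992 in WT nerves (-1.37, adjusted p = 0.00506). On the list of collagens and matrix genes 32 were measured, with a median of -0.02 and 0 calls.

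The remaining common lower genes, apart from Tg, were singled out after their values were seen. Among membrane proteins were the potassium channel Kcnk1 (-1.17), the channel subunit Cnga2 (-1.09), the glial receptor Gpr37l1 (-1.09), the organic anion carrier Slco3a1 (-0.95), the peptide carrier Slc15a2 (-0.70), the surface glycoprotein Cd24a (-0.69) and Ank (-0.59), which exports pyrophosphate. Kcnk1 read 328 to 772 on the mutant arrays and 947 to 1287 on the WT arrays, and Gpr37l1 read 286 to 682 on the mutant arrays and 879 to 1065 on the WT arrays. The others were the thyroglobulin gene Tg (-1.03), the glycolytic Aldoc (-0.94), Wdfy2 (-0.73) and Mea1 (-0.68). Their limma adjusted p ran up to 0.0293. Mea1 lay at or below the floor on 1 KO, 1 TG and 2 TR arrays. Slc15a2 did so on 1 KO, 2 TG and 1 TR arrays. The floor thus bounds the changes of both and narrows their spread. The unnamed 96482_at lay at or below the floor on all 9 mutant arrays and above it on the 3 WT arrays (65.6 to 109), so that its -0.61 is a bound, and the unnamed 98409_at had -0.85 and 160832_at an adjusted p of 0.0103.

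Of the common genes 6 were higher in the mutants, and these calls depended on single arrays. Across the 12 fits that each left out 1 P4 array, Id2 was called in 10. Ccnd1, Ifrd2 and Ptprz1 were called in 5 each, Rnf166 in 4 and Anxa1 in 3. Without WT_2, and in the fit on the 12 P4 arrays, 0 probe sets were common and higher. Id2, which blocks DNA binding of helix-loop-helix transcription factors, read 3275, 3344 and 3284 in KO nerves, 2886, 3008 and 2198 in TG nerves and 2534, 2615 and 2720 in TR nerves, against 1765, 1599 and 2178 in WT nerves. TG_3 lay only just above the highest WT array (0.64 ± 0.11, limma adjusted p = 0.013). Ccnd1, the cyclin that drives entry into the cycle, read 3279, 3223 and 3736 in KO nerves, 3174, 3172 and 2370 in TG nerves and 2853, 2553 and 3469 in TR nerves, against 2161, 1280 and 1937 in WT nerves (0.81 ± 0.16, adjusted p = 0.0275). A second, Ccnd1 94231_at, had 0.14 without a call. Ptprz1, a receptor phosphatase of glia and their precursors, read 104 to 206 on the mutant arrays and 60.4 to 104 on the WT arrays on 92380_r_at (0.82, adjusted p = 0.0356), with a gap between TR_2 and WT_1 of less than 1 index unit. Its brighter 92379_f_at was not called (0.55, adjusted p = 0.778). The ubiquitin ligase Rnf166 read 156 to 419 on the mutant arrays and 127 to 143 on the WT arrays (1.03, adjusted p = 0.0371), and Ifrd2 read 89.1 to 158 on the mutant arrays and 67.1 to 82.5 on the WT arrays (0.73, adjusted p = 0.0411). Anxa1, a calcium-dependent membrane binder, read 2329 to 3055 on the mutant arrays and 1622 to 2172 on the WT arrays (0.51, adjusted p = 0.0476), and its 161703_f_at gave 0.52 without a call (adjusted p = 0.125).

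Beside Ccnd1, most cell cycle genes had positive values without passing the test. Of 51 genes 46 were measured, 42 had a positive value, where 55.6% of all probe sets did, and the median log2 change was 0.42. Only Ccnd1 was called, while 22 had an unadjusted p below 0.05 in the upward direction, a share to be read against 3.45% of all probe sets. Kif11 and Rrm1 had the highest values, 0.93 and 0.83 (adjusted p = 0.35 and 0.40). All 9 mutant arrays lay above all 3 WT arrays for 3 of the 46, and for 0.473% of all probe sets. The medians were 0.57 in KO, 0.39 in TG and 0.27 in TR. The summed index of the 46 ran from 34336 to 38333 in KO nerves, 29396 to 37624 in TG nerves and 28086 to 37683 in TR nerves, against 24304 to 28938 in WT nerves, so that TR and WT overlapped.

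Other Schwann cell lists each held 1 called gene by brightest probe set. Of the 17 measured transcription regulators only Id2 was called, higher in the mutants, where 0.109% of all probe sets were called higher. The median of the regulators was 0.14, with Sox10 at 0.29, Sox2 at 0.26, Jun at 0.14 and Egr1 at 0.56. Of the 19 measured genes of immature, non-myelinating and injured Schwann cells, S100b was called lower, where 0.455% of all probe sets were called lower. The median of these genes was 0.23 for the mean of the mutants, but -0.05 in KO, 0.06 in TG and 0.07 in TR. S100b, a calcium-binding marker of Schwann cells, read 365, 501 and 476 in KO nerves, 359, 320 and 735 in TG nerves and 222, 145 and 215 in TR nerves, against 673, 733 and 895 in WT nerves. TG_3 lay within the WT range, so S100b was called (-1.19, limma adjusted p = 0.0166) but not common.

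**Figure D4:**
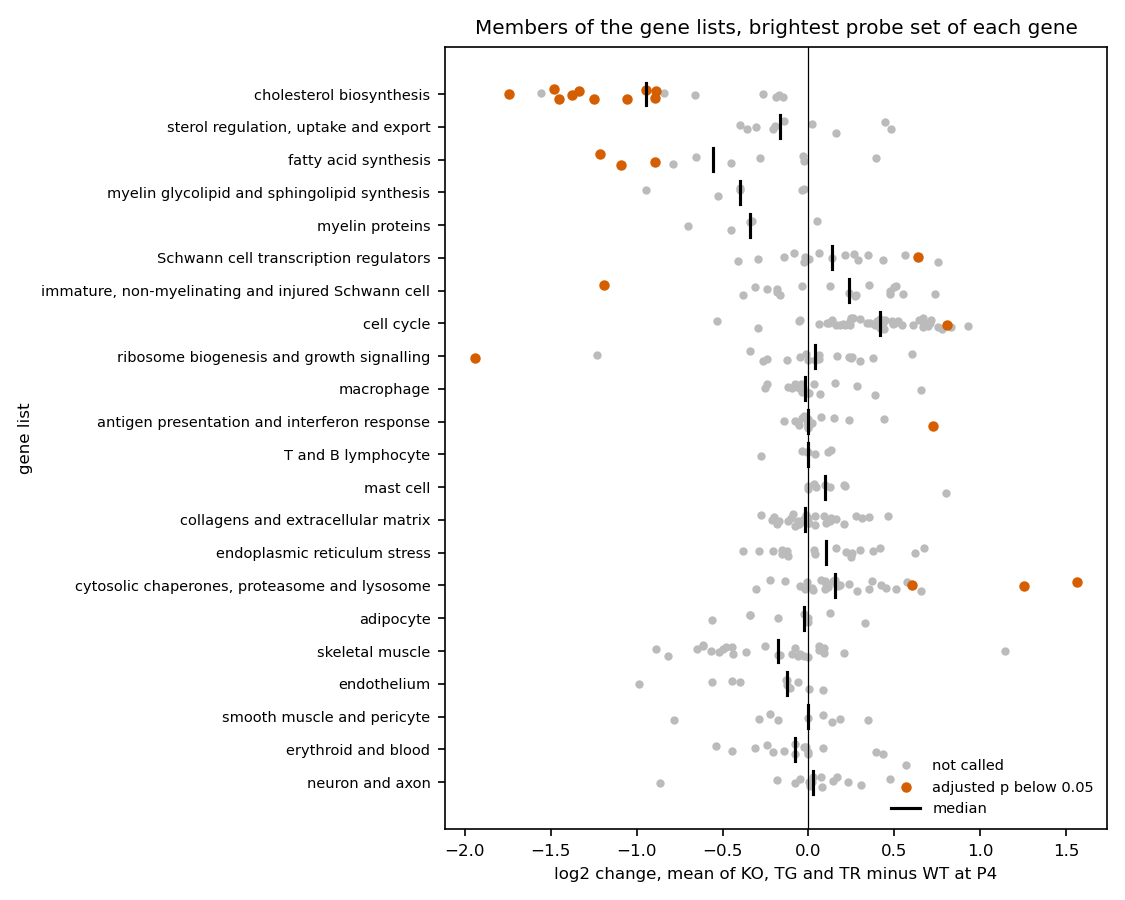
Log2 change at P4, mean of KO, TG and TR minus WT, for each measured member of the 22 gene lists by its brightest probe set (points), with the list's median (bar) and called members in orange. Cholesterol synthesis has the lowest median, at -0.95, and cell cycle the highest, at 0.42. The lists of other cell types centre near 0, apart from skeletal muscle at -0.18 with single members from -0.89 to 1.14.

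Most lists for other cell types and processes held no call, beside 0.564% called among all probe sets. There were 0 in those for macrophages, lymphocytes, mast cells, matrix, endoplasmic reticulum stress, adipocytes, skeletal muscle, endothelium, smooth muscle, blood and neurons. Across these 11 lists the median changes lay between -0.18 and 0.10. Skeletal muscle had the lowest of them, with medians of -0.58 in KO, 0.01 in TG and -0.01 in TR and a summed index of 5645 to 11400 in KO nerves, 7107 to 21659 in TG nerves and 8522 to 14676 in TR nerves, against 8063 to 25561 in WT nerves. The part of muscle RNA in the KO values was not tested. Of 30 measured genes on the list of chaperones, proteasome and lysosome 3 rose, where 0.109% of all probe sets did: Hspa1a, Hspa1b and Hsp90aa1, each with its highest value in TR. Of 20 measured genes of antigen presentation and interferon response 1 rose, Cxcl10.

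Not every probe set called in the mean was shared by the genotypes. Of the 62 called, 20 were not common. Hspa1a, an inducible heat shock protein, read 95.4, 87.9 and 73.5 in KO nerves, 97.5, 83.5 and 80.6 in TG nerves and 1933, 1242 and 1990 in TR nerves, against 71.0, 73.9 and 92.0 in WT nerves. KO and TG arrays overlapped WT, and the TR arrays alone carried the mean change of 1.56 (4.42 in TR). The near-identical Hspa1b (3.52 in TR), Hsp90aa1 (1.14 in TR) and the chemokine Cxcl10 (1.63 in TR) also had their highest changes in TR. The growth factor Gdf5 read 142, 264 and 259 in KO nerves, 12.8, 44.2 and 98.4 in TG nerves and 31.3, 114 and 108 in TR nerves, against 654, 408 and 264 in WT nerves. One KO array reached the lowest WT array, so that its -1.94 (limma adjusted p = 0.00675) missed the rule for common probe sets by that array.

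Whether the mutants differed in size of change was tested with an F test among the means of KO, TG and TR, with the spread estimated over all arrays, WT included. It called 62 probe sets (0.564%), 5 of the 42 common ones and 6 of the 20 others. The 5 were Idi1 (limma adjusted p = 0.00725), Serpinc1 (0.0276), Hmgcs1 (0.0327) and both Scd1 probe sets (0.0387 and 0.0417). Idi1 stood at -0.84 in KO, -2.03 in TG and -1.27 in TR, and Hmgcs1 at -0.53 in KO, -1.81 in TG and -1.68 in TR. Scd1 (94056_at) stood at -0.80 in KO, -1.46 in TG and -1.39 in TR. For these genes the KO value was nearest to 0, whereas Serpinc1 had its lowest value in KO, at -2.85 beside -1.38 in TG and -1.28 in TR. Over the 36 common lower probe sets, the value nearest to 0 was in KO for 28, in TR for 6 and in TG for 2, with medians of -0.83 in KO, -1.33 in TG and -1.13 in TR. These orders are descriptions, since only 5 of the 42 passed the test among mutants. Of the 5 probe sets with the smallest p of all tested, Hspa1a and Hspa1b were high in TR, Adk was high in KO on 97690_at (1.23, with TG and TR at or near the floor), and AI506816 and Snhg6 were low in KO (-2.73 and -3.18), and none of these was common.

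The same comparison at postnatal day 60 (P60), in other animals, asked whether the common changes were present in the adult nerve. It held 2 arrays of each mutant and 3 of WT, and called 858 of the 10994 probe sets (7.8%), 630 lower (5.73%) and 228 higher (2.07%). Of the 36 common lower probe sets, 24 were also lower at P60, and of the 6 common higher ones 3 were also higher, while 0 of the 42 were called in the opposite direction. Fdps stood at -2.21 at P60 and Idi1 at -2.03. Cyp51 and Sqle stood at -1.87 and -1.83, Sqle being at -0.89 at P4, a difference between the ages that missed the threshold (limma adjusted p = 0.0579). Over the 17 cholesterol genes the median was -1.31 at P60 and 12 fell.

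The size of the mutant effect differed between the ages for 102 probe sets (0.928%), 4 of them common, in 3 genes. On Scd1 94056_at P60 mutants read 4618 and 4558 in KO, 6176 and 6538 in TG and 5441 and 4637 in TR, against 5700, 4394 and 6452 in P60 WT nerves. The P60 groups overlapped, the P60 change was -0.05, and the test between the ages gave a limma adjusted p of 0.000824. On Scd1 94057_g_at P60 mutants read 2468 and 1981 in KO, 5586 and 5064 in TG and 4787 and 2837 in TR, against 3796, 2962 and 6106 in P60 WT nerves. There both KO arrays and 1 TR array lay below all WT arrays, the P60 change was -0.22 (adjusted p = 0.587), and the adjusted p between the ages was 0.048. Mme had a mean of -0.05 at P60 (adjusted p between the ages = 0.00871), but the genotypes split there. KO nerves read 64.4 and 39.7 and TR nerves 58.4 and 34.9, below WT nerves at 70.1 to 98.7. TG nerves read 225 and 123, above the WT nerves, so that the mean pooled changes of opposite direction. The Id2 difference was larger at P60 than at P4. Id2 read 1140 and 1031 in KO, 1749 and 1462 in TG and 1557 and 1821 in TR at P60, against 239, 240 and 278 in WT. The mutants were thus clearly apart from WT in the adult, at 2.51 against 0.64 at P4 (adjusted p = 1.1e-05). The Ptprz1 probe set that was common at P4, 92380_r_at, was at or below the floor on all 9 P60 arrays, whereas 92379_f_at read above it on 4 mutant and 2 WT arrays there.

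**Figure D5:**
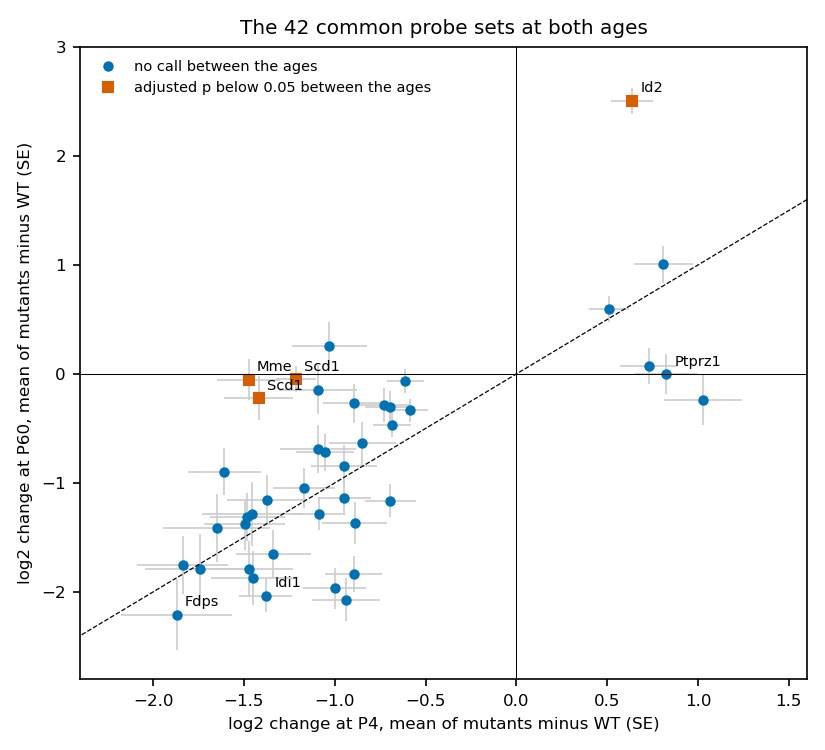
Log2 change of the mutants from WT at P4 (horizontal) and at P60 (vertical) for the 42 common probe sets, with SE, and a dashed line of equal change. Squares mark the 4 probe sets whose change differed between the ages. Most sterol genes lie near or below the line at lower left, Mme and both Scd1 probe sets lie near 0 at P60, and Id2 lies far above the line.

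How far these calls rest on single arrays and on the scan day bears on all of them. TR_2 and WT_2 were the only mutant and WT arrays at P4 of 1 scan day. Between them the median difference was -1.14 over the 17 cholesterol genes and 0.14 over the 46 cell cycle genes. Over all P4 arrays of TR and WT, these medians were -1.06 and 0.27. The cell cycle median of 0.42 in the full comparison also took in KO and TG. With scan day as a fixed block, which leaves 5 residual degrees of freedom, 4 probe sets were called, 0 of them common, although all 42 kept their sign and the cholesterol median was -0.91. Without TG_3 99 probe sets were called and 82 were common, all 42 among them, and without WT_3 26 were called and 23 were common. Across the 12 fits that each left out 1 P4 array, 15 of the 42, in 11 genes, were called in every fit. They were Serpinc1, Nsdhl (98630_at, 98631_g_at), Elovl6 and Scd1 (both probe sets each), Mme, Idi1, Hmgcs1, Kcnk1, Lss, Msmo1, Mea1 and 96482_at. Of these, Serpinc1, Mme, Mea1 and 96482_at had mutant arrays at the floor.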

How the data were processed

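Sciatic nerve RNA was hybridised to MG_U74Av2 arrays after 2 rounds of in vitro transcription, per the labels' protocols. The deposited values are intensities on a linear scale: the authors scanned with MAS 5.0 and, per the labels, computed a dChip model-based index after smoothing-spline normalization, with probe sensitivities estimated over several arrays at once. The dChip version is not given in the sources used here. Values below 0 occur.

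The table held 12422 probe sets, none of them a control. Values under 54.7, the 20th percentile of all values, were raised to it, and log2 was taken. A probe set entered the test if 2 or more arrays exceeded the floor, which kept 10994 and left out 1428. limma 3.58.1 (R 4.3.3) fitted 8 group means to the 21 arrays (13 residual degrees of freedom) with a trended eBayes step and Benjamini-Hochberg adjustment at 0.05 over all tested probe sets. The mean of KO, TG and TR minus WT was the main contrast, beside each mutant minus WT, an F test among mutants, and the same contrast at P60 and its difference between ages. Several mutant contrasts share the WT arrays. The fit was tested on simulated data. A gene of a list was represented by its brightest probe set.

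Gene names were those of GEO's annotation of the array, with 1 symbol for 10833 probe sets, several for 396 and none for 1193, and 10817 matched RefSeq (GRCm38.p6). Named were Pmp22, the 15 highest and 15 lowest common probe sets with 1 symbol, all measured cholesterol and sterol-regulation genes, up to 4 called members of each other list, the 5 smallest p among mutants (in common ones and in all) and the 5 smallest p between ages among common ones. Members and lists were chosen with earlier results of these data known. Nothing in the labels says that pools were separate litters, so p-values measure the spread between arrays, and the number of arrays limits precision.

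Alternatives were another floor, offset, filter and scaling, a fit on P4 alone, pooled mutants, the replicate number and scan day as blocks, and leaving out each array or genotype.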

Additional observations from a re-analysis of the deposited data

Results flagged for a closer look

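Single arrays stood apart among the 9 mutant arrays at P4 for 4 named probe sets, by a gap test with a nominal chance rate of about 1 in 20. These were Pmp22 161442_at on TG_3 (122), Nr1h3 104381_at on TG_3 (61.6), Sc5d 102768_i_at on KO_2 (128) and Abca1 97198_at on KO_2 (101), each the highest of the 9. The nominal rate does not hold here, since KO, TG and TR were pooled and each of the 4 had mutant arrays at or below the floor. The gap test was also run on every named probe set, so that a few such gaps would arise by chance. No conclusion is drawn from these gaps.

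KO, TG and TR differed from each other, by the F test among their means, for 12 named probe sets. Among common ones these were Idi1 (limma adjusted p = 0.00725), Serpinc1 (0.0276), Hmgcs1 (0.0327), Scd1 94057_g_at (0.0387) and Scd1 94056_at (0.0417). Among the others were the TR-high Hspa1a (7.44e-09), Hspa1b (9.37e-08), Cxcl10 (0.000105) and Hsp90aa1 (0.00669), the KO-low AI506816 (1.28e-06) and Snhg6 (2.64e-05), and the KO-high Adk (5.5e-06).

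The mutant effect differed between P60 and P4, by limma's test of the difference, for Id2 (adjusted p = 1.1e-05), Scd1 94056_at (0.000824), Mme (0.00871) and Scd1 94057_g_at (0.048).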

How the results depend on the processing

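The direction of the common probe sets did not turn under any alternative that tested them, which the rule that mutant and WT arrays do not overlap largely fixes, while the number passing the threshold depended on how the spread was estimated. Beside 62 called and 42 common, a fit on the 12 P4 arrays gave 18 and 16, the 9 mutant arrays taken as 1 group gave 0 and 0 (limma, 725 at an unadjusted p below 0.05), and the replicate block gave 13 and 11, with 17 among mutants. A fixed scan day gave 4 and 0 (1136 unadjusted), with 36 among mutants, and could not be fitted for the difference between ages. A random scan day gave 118 among mutants and 185 between ages. Leaving out 1 array at a time gave 26 to 99 called, 23 to 82 common, 29 to 151 among mutants and 55 to 392 between ages. The low ends came without WT_3 (called, common, ages) and KO_2 (among mutants), the high ends without TG_3, TR_3 and P60_KO_1. Without WT_1, WT_2, KO_1 and TG_1, 32, 38, 40 and 40 were called, and without P60_TR_1 154 differed between ages. The other floors, offset, filters, scalings, the fit without a trend and the fits without a genotype stayed within 1.5 times of both counts. The probe sets behind these counts changed, however. Of the 42 common ones, 34 were called without KO, 26 without TG and 36 without TR. Only 21 of the 42 were called whichever genotype was left out. The cholesterol median lay between -1.08 and -0.89 in all settings, while the number of cholesterol genes called did not hold. Of the 17 measured, 10 were called lower in the main fit and 2 in the fit on the 12 P4 arrays. The replicate block called 1 of them lower, and the mutant arrays taken as 1 group and the fixed scan day called 0. Changes of probe sets near the floor are bounded by it. Same-numbered arrays were checked for pairing: of 18 pairs of deviations from the group means, 11 correlated above 0.1 (range -0.35 to 0.53), and 9 of the 12 P4 arrays were closest to an array of their own number. Numbers were not taken as pairs, since not every pair exceeded 0.1 and the labels name nothing shared.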
